A study of Mus musculus with 8 samples.

Results

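The Sprouty, Spred, DUSP and ETV genes that feed back on ERK signalling were examined in YTHDF3 RIP-seq of mouse embryonic fibroblasts (MEFs). The genes were Spry1, Spry2, Spry4, Spred1, Spred2, Dusp4, Dusp5, Dusp6, Etv4 and Etv5. Every peak that carried the name of 1 of these 10 genes was taken, and peaks of different lists that overlapped were merged into regions. This gave 57 regions of 39979 in all. Of these, 17 were called in all 4 peak lists, among 6531 such regions in the series, and they came from 7 of the 10 genes. The genes were selected on the very values given here, their reads in normal and starved MEFs, so these are a description with no test.

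ERK, the last kinase of the Ras cascade, is switched on by growth factors and drives transcription of genes that hold it in check. Sprouty and Spred proteins act on the cascade above ERK, DUSP phosphatases remove the activating phosphates from MAP kinases, and ETV4 and ETV5 are ETS transcription factors whose genes are induced through FGF and ERK signalling. Many transcripts of this kind are short-lived, so their level follows the signal closely. YTHDF3 is a cytoplasmic reader protein that binds mRNA carrying the methylated base m6A.

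The MEFs were wild type C57BL/6 cells from embryos of 13.5 days, used at passage 5 to 6. They were grown in high-glucose DMEM with 10% serum (normal) or moved to nutrient-deprived medium for 2 h (starved). RNA was recovered with an antibody to endogenous Ythdf3 (IP) or without antibody (input), as 8 polyA RNA samples with 2 replicates per condition and library kind. No label says that the replicates were separate cultures, so the spread between them may be technical.

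Peaks were kept as the study defined targets, by a minimum fold of IP over input of 2 and a p under 0.0001, and the lists then held 17364 to 24701 peaks with 8818619 to 19271667 IP reads and 2507434 to 5157523 input reads. Library depth is unknown, because reads outside called peaks are not listed, and a gene with no peak may still have been transcribed. Of 10 fibroblast markers, Col3a1 and Pdgfrb had a peak in all 4 lists, while Col1a1, Vim and S100a4 had none. None of 4 epithelial and 3 blood markers had a peak, and of 3 endothelial markers only Kdr had one, with at most 5 input reads. The library kit keeps strand, but whether the counting used it is not given in the sources used here.

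The RNA sequence around GGACT, a frequent form of the m6A consensus, is shown for 4 genes, as these stretches carry reads described below. Their largest regions were called in all 4 lists and held this motif. That of Spry4 did so too, but its sites are not shown. For each gene the GGACT nearest to its stop codon is printed 5′ to 3′ on the strand of the gene, read from mm10, with the motif in capitals. The Spry1 site (chr3:37643657-37643685, plus strand) lies in the 3′UTR, 120 nt after the stop codon. The Spry2 site (chr14:105893088-105893116, minus strand) lies in the coding sequence, 299 nt before the end of the stop codon. The Dusp4 site (chr8:34818771-34818799, plus strand) straddles the end of the stop codon. The first G of its motif is the last base of the stop codon, and the A lies 2 nt after it in the 3′UTR. The Etv5 site (chr16:22383115-22383143, minus strand) lies in the 3′UTR, 341 nt after the stop codon. All 4 distances are counted to the A of the motif. Peaks of all 4 lists covered each of these sites.
Spry1: ctcaataggagtGGACTgtgaaactgcac
Spry2: tcattgactatgGGACTtgtgtgtgctgt
Dusp4: ccccagctgttaGGACTcgtctctggacc
Etv5: tgcgttgatcatGGACTactaaaatgcct

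The largest region of a gene is here the one with the most IP reads among regions that carry its name and lie on its exons. In these regions of the 7 genes, GGACT was present in 5, or 71.4%, against 59.5% of 2848 exonic regions called in all 4 lists with at least 200 nt of exon. Such a share depends on the length of the regions, which was not matched here. Its density was 1.97 per kb of exon in Spry1 and in Spry2, 2.00 in Dusp4, 1.69 in Etv5 and 0.444 in Spry4, where the median of all regions was 0.884 per kb. Both motifs were counted on the strand of the gene only. The shorter GGAC, which includes every GGACT, was present in 91.3% of the regions, with a median of 4.82 per kb. Spry1 had 6.42 GGAC per kb and Etv5 had 7.59, while Spry4 had 2.22, Dusp4 had 2.67 and Dusp5 had 1.70. Among these largest regions, those of Spry4, Spry2 and Dusp5 had the lowest reads in starved relative to normal MEFs. Their GGAC densities were below the median of all regions, but that of Spry2 only slightly. The density of Dusp4, whose reads changed less, was below the median too. For GGACT, Spry2 was above the median while Spry4 and Dusp5 were below it. Whether motif density relates to the change in reads was not tested. A motif match is a description of the letters and not a methylated site.

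Among the 17 regions called in all 4 lists, those past the cutoff in reads were all lower in starved MEFs and came from the Sprouty genes, Dusp4 and Dusp5, and none passed in the IP/input fold. IP reads, scaled between libraries by TMM, were lower by at least 1.8-fold in both replicates in 6 of 17 regions, against 2.92% of all 6531 regions. No region was higher by this measure, against 3.12% of all regions. Input reads were lower in 8 of 17 regions, against 3.67%, and higher in 0, against 5.02%. The IP/input fold passed 1.8-fold in neither direction in any of the 17 regions, where the shares of all regions were 0.23% higher and 0.322% lower. Because the genes were chosen with this contrast known, nothing further is read from these shares. In a bulk sample, fewer cells of a type and less RNA per cell cannot be told apart.

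The median log2 change of the 17 regions, as the mean of both replicates, was -1.19 for IP reads, -1.33 for input reads and 0.12 for the IP/input fold. Over all 6531 regions the medians in replicates 1 and 2 were 0.03 and 0.00 for IP reads, -0.01 and 0.03 for input reads, and -0.05 and 0.07 for the fold. IP reads were lower in both replicates in 14 of the 17 regions, against 33.1% of all regions. Input reads were lower in both in 11, against 31.9%, and the fold was higher in both in 8, against 27.9%. Replicate 1 had the lower log2 change in IP reads in all 16 regions that lay on exons of their own gene, against 48.3% of all regions.

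**Figure D1:**
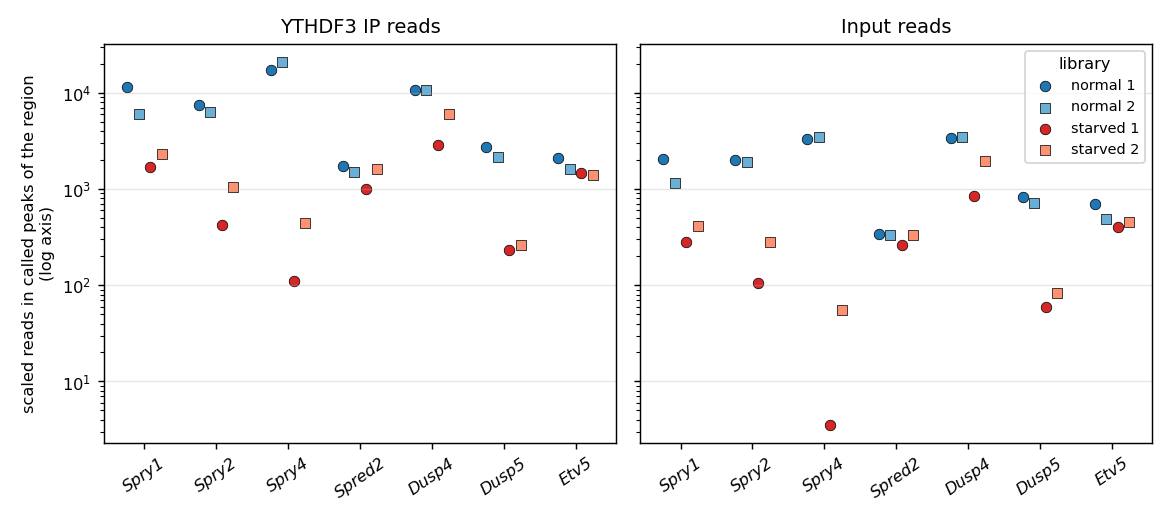
IP reads (left) and input reads (right) in called peaks of the largest region of each gene, scaled by TMM and on log axes, in the 2 normal and 2 starved libraries. Scaled IP reads of Spry4 were 17160 and 20728 in the normal libraries but 111 and 438 in the starved ones, whereas those of Etv5 lay between 1407 and 2085 in all 4.

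The regions that lay just inside and just outside the cutoff show where it divides the genes. The 5′ region of Spry1 was inside, with log2 changes in IP reads of -4.72 and -1.002, and the last exon of Dusp4 was outside, with -1.86 and -0.82, the cutoff being 0.848 on this scale.

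Spry4, an inhibitor of the cascade between receptor and Raf, had the lowest IP reads relative to normal MEFs of all 6531 regions and also the lowest input reads. Its largest region (chromosome 18, 38586191 to 38590990, minus strand) covered exon 2 of 2, with 47 bp of 5′UTR, the 903 bp of coding sequence and the 3559 bp of 3′UTR. It held 11884 and 18474 IP reads in the normal libraries and 141 and 557 in the starved libraries. The groups did not overlap, and the scaled values were 155-fold and 47.3-fold lower in replicates 1 and 2 (log2 -7.28 and -5.57). Input reads were 2664 and 4440 in the normal libraries but 3 and 62 in the starved ones. Their log2 changes were -9.85 and -5.97. The first rests on 3 reads, with a 95% counting interval of -12.13 to -8.30 that covers counting error only. It leaves out reads outside called peaks, which spanned 4730 bp in normal replicate 1 but 1080 bp in starved replicate 1.

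The stretch of Spry4 that was called as a peak was also shorter in the starved lists. Peaks covered 99.9% and 100.0% of its exons in the normal lists and 22.7% and 72.1% in the starved lists, broken into 2 and 4 peaks of the region where normal MEFs had 1. Per kb of called sequence the log2 changes were therefore smaller, at -5.02 and -5.00 for IP reads and -7.54 and -5.43 for input reads. A shorter region over exon 1 held 697 and 718 IP reads in normal MEFs and 20 in starved replicate 2, and was not called in starved replicate 1. A pair of intronic regions were called in normal replicate 2 alone, with 12 and 27 IP reads.

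The IP/input fold of Spry4 was 3.60 and 4.16 under normal conditions and 20.1 and 5.99 after starvation. The value of 20.1 rests on 3 input reads and has a 95% counting interval of 6.75 to 98.8, which covers counting error only. The fold was thus higher in both starved libraries, by log2 2.49 and 0.53, and the second lies under the cutoff. The mean of both was 1.51, which ranked 5 from the top of 6531 regions, but this rests on the library with 3 input reads. With at least 10 input reads assumed in every library the mean was 0.64, and replicate 2 alone gave 0.53. The remaining 141 and 557 IP reads made up a small part of the reads of normal MEFs.

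**Figure D2:**
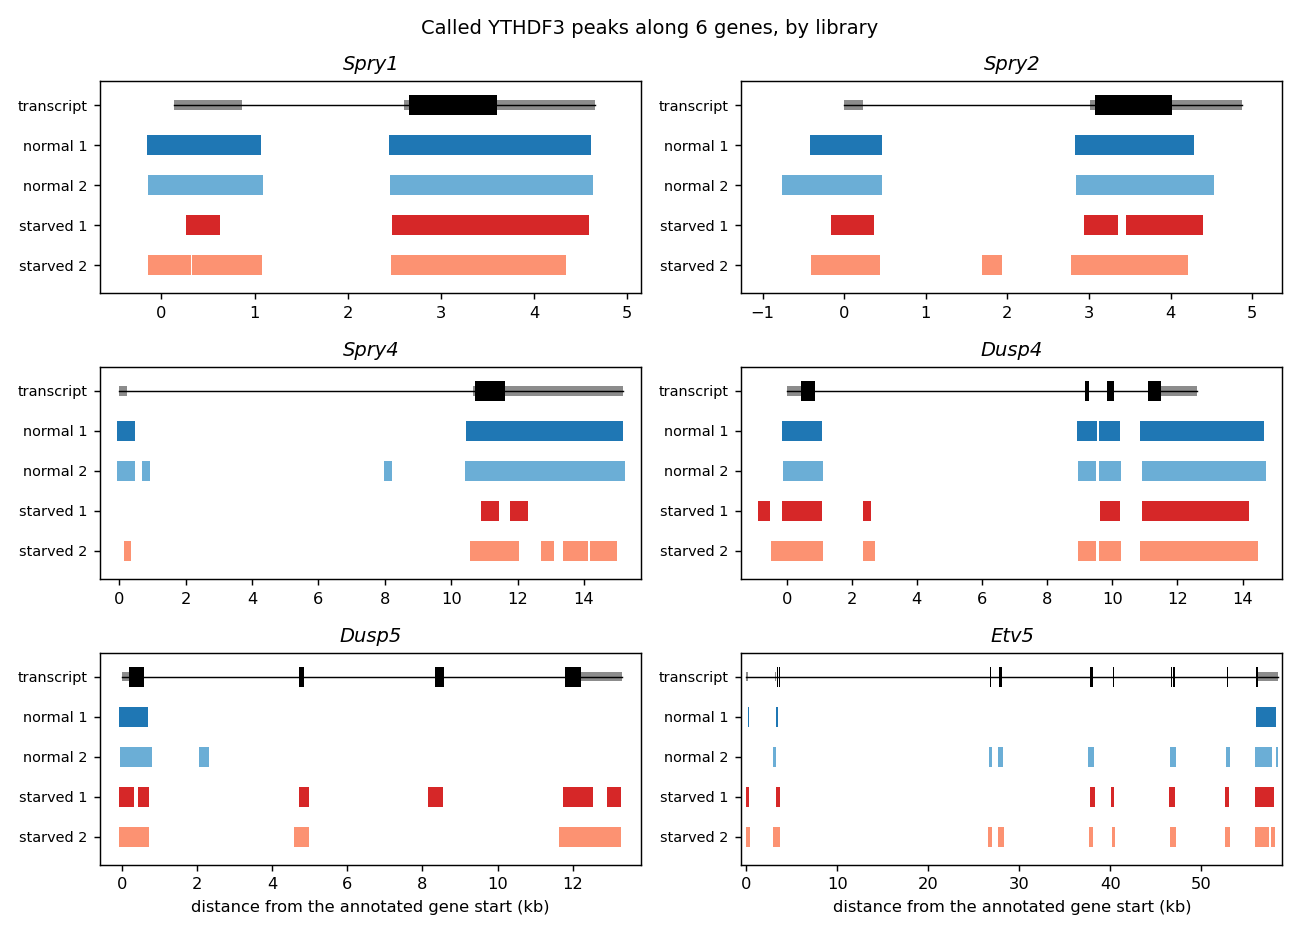
Called peaks (bars) along 6 of the genes in each of the 4 lists, against the distance in kb from the annotated gene start, under a transcript with coding exons in black, UTRs in grey and introns as a line. Spry4 peaks fill both exons in the normal lists and are broken up or missing in the starved lists, while Dusp5 has more called exons in the starved lists.

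Spry2, the Sprouty member that binds several adaptors of receptor tyrosine kinases, was lower in both of its exonic regions. The larger (chromosome 14, 105892281 to 105894040, minus strand) covered exon 2, which holds the whole coding sequence. It had 5158 and 5601 IP reads in the normal lists against 534 and 1319 in the starved lists, a 17.8-fold and a 6.06-fold lower scaled value. Input reads were 1624 and 2446 against 89 and 315, with log2 changes of -4.24 and -2.77 beside -4.15 and -2.60 for the IP. The 5′ region over exon 1, which reaches upstream of the annotated start, had 1957 and 2083 IP reads in the normal libraries but 214 and 526 in the starved ones. IP and input reads of Spry2 were thus lower by a similar factor at both ends of the transcript.

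The IP/input fold of the larger Spry2 region was 2.56, 2.29, 2.57 and 2.79 in normal replicates 1 and 2 and starved replicates 1 and 2. Both starved values were above both normal values, by a log2 difference of only 0.01 and 0.29 within the replicates. In the 5′ region the fold was 2.59 and 3.04 against 2.96 and 2.56, and the groups overlapped. One more region in the intron was called in starved replicate 2 alone, with 15 IP reads.

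Spry1, which limits receptor signalling in the same way, was lower by a smaller factor. Its largest region (chromosome 3, 37642391 to 37644580, plus strand) covered exon 2, with 55 bp of 5′UTR, the 942 bp of coding sequence and 1029 bp of 3′UTR. It had 7908 and 5349 IP reads under normal conditions and 2168 and 2908 after starvation, 6.71-fold and 2.63-fold lower after scaling. Input reads were 1661 and 1482 against 235 and 463, with log2 changes of -2.88 and -1.49. The IP/input fold was 3.84 and 3.61 in the normal lists against 3.95 and 4.19 in the starved lists, higher in both starved libraries by log2 0.04 and 0.21 only.

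The region at the 5′ end of Spry1 had 1220 and 842 IP reads in the normal libraries but 85 and 600 in the starved ones. The replicates differed more here than in exon 2, with log2 changes of -4.72 and -1.002 in IP reads and -4.50 and -0.97 in input reads. In starved replicate 1 the peak spanned 370 bp, against 1210 to 1240 bp in the other lists, and per kb the log2 changes in IP reads were -2.87 and -0.89. This region overlaps Gm42922, annotated on the opposite strand, and without knowledge of strand their reads cannot be told apart.

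Spred2, a Sprouty-related protein that works with neurofibromin to restrain Ras, had no region past the cutoff. Its region over exon 1 (chromosome 11, 19924041 to 19925170, plus strand) had 1204 and 1328 IP reads under normal conditions and 1284 and 2038 after starvation. The log2 changes were -0.79 and 0.10 for IP reads and -0.38 and 0.02 for input reads, so the replicates differed in sign. Its fold was 3.56 and 3.12 in the normal lists against 2.52 and 3.60 in the starved lists, and the groups overlapped. Regions over exons 2 to 5 had 120 to 433 IP reads, and their log2 changes in IP reads lay between -0.44 and -0.10. The region over its last exon carries the name of the neighbouring Actr2 in the lists, so it was not among the 57, although it held more reads than exon 1. It had 2022 and 3353 IP reads in normal MEFs and 2847 and 3343 in the starved libraries, and the log2 changes after scaling were -0.39 and -0.52.

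Spred1, the relative that is mutated in Legius syndrome, had a named region at exon 1 alone. It had 85 and 803 IP reads in normal MEFs and 1138 in starved replicate 2, and it was not called in starved replicate 1. The 85 reads of normal replicate 1 came from a peak upstream of the gene, at -0.543 to -0.344 kb from its start. The lists thus disagreed within each condition, and no direction can be given for Spred1. On its later exons 3 regions were called in 1 starved list each, with 45 to 109 IP reads, under the name Mir674.

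**Figure D3:**
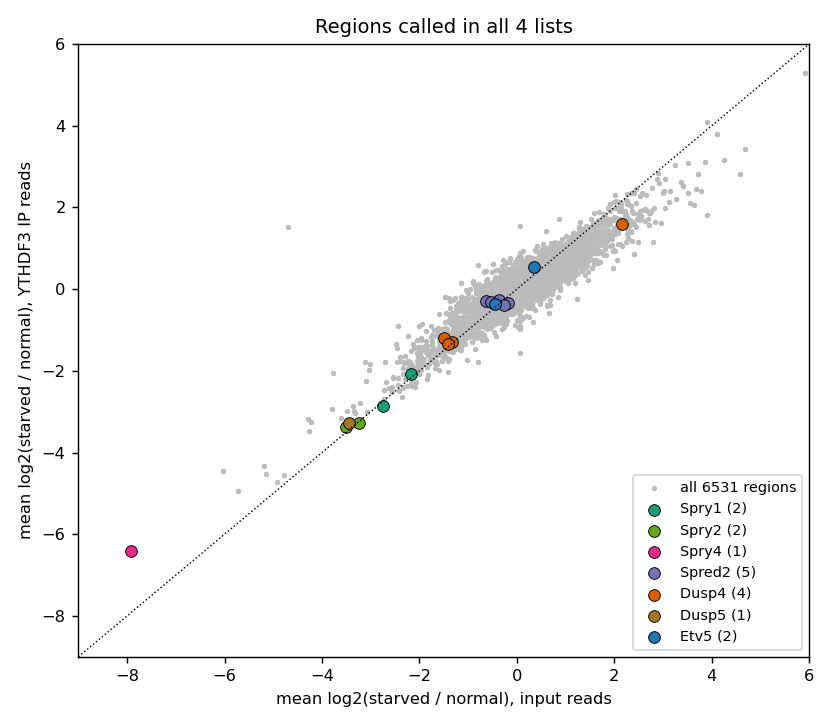
Log2 change in IP reads (vertical axis) against log2 change in input reads (horizontal axis), starved over normal as the mean of both replicates, for the 17 regions called in all 4 lists, over all 6531 regions in grey, with a dotted line where both are equal. The Spry1, Spry2, Dusp5 and 3 of the Dusp4 regions lie near the line at the lower left, Spry4 lies above it at -6.42 in IP and -7.91 in input reads, and the Spred2 and Etv5 regions near 0, while the region named Dusp4 on exons of Tnks lies at the upper right.

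Dusp5, a nuclear phosphatase specific for ERK, had fewer reads on exon 1 and more called exons in starved MEFs. The exon 1 region (chromosome 19, 53529041 to 53529910, plus strand) was the only one called in all 4 lists, with 1894 and 1903 IP reads in the normal libraries but 296 and 335 in the starved ones. Scaled IP reads were 11.8-fold and 8.11-fold lower, the most even pair of replicates among the Sprouty and DUSP regions past the cutoff. Input reads were 673 and 917 against 50 and 95, with log2 changes of -3.81 and -3.08. The fold was 2.27 and 2.08 under normal conditions and 2.54 and 2.35 after starvation, higher in both starved libraries by log2 0.16 and 0.18. This exon overlaps AC137853.2, annotated on the opposite strand, and without knowledge of strand their reads cannot be told apart.

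Downstream exons of Dusp5 were called more often in starved MEFs. The 3′ region (53540751 to 53542380) was called in the starved lists alone, with 728 and 988 IP reads and folds of 2.17 and 2.08, close to the threshold of 2 that makes a peak. Peaks covered 23.8% of Dusp5 exons in each normal list and 78.1% and 89.0% in the starved lists. Summed over all regions on its exons, IP reads were 1894 and 1903 in the normal lists against 1343 and 1531 in the starved lists, a log2 change of -1.37 and -0.83. The second is just under the cutoff, and reads outside called peaks of the normal lists were not used here, so the sum says less than the exon 1 region.

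Dusp4, a nuclear phosphatase of ERK, JNK and p38, was lower by less, and more so in replicate 1. The largest region (chromosome 8, 34818161 to 34822020, plus strand) covered exon 4 and ran 2126 bp past the annotated end of the gene. It had 7282 and 9492 IP reads in the normal libraries but 3680 and 7666 in the starved ones, with log2 changes of -1.86 and -0.82. Unscaled, starved replicate 2 was above normal replicate 1, so the reads overlapped before scaling. Input reads were 2737 and 4451 against 703 and 2193, with log2 changes of -2.02 and -0.83. The fold was 2.15 and 2.13 under normal conditions and 2.24 and 2.33 after starvation.

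Exon 1 of Dusp4 had 3790 and 3934 IP reads in the normal lists against 1852 and 3553 in the starved lists, and exon 3 had 1075 and 1263 against 597 and 1145. Their input reads passed the cutoff, with log2 changes of -1.50 and -1.17 in exon 1 and -2.05 and -0.95 in exon 3. Their IP reads did not, since replicate 2 changed by -0.66 and -0.65. Exon 2 was called in 3 lists, with 822 and 965 IP reads in normal MEFs and 809 in starved replicate 2.

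Most regions that carry the name Dusp4 do not lie on Dusp4. Of 23, 19 lay off its exons, and 16 of them lay on exons of the neighbouring Tnks. One of these was called in all 4 lists (34869251 to 34869830), with 19 and 261 IP reads in the normal libraries but 307 and 383 in the starved ones, and after TMM scaling it was the only one of the 17 regions with more IP reads in both replicates, by log2 3.14 and 0.04. It is not a measurement of Dusp4 mRNA. Without it, 16 regions remained, and the counts of regions past the cutoff were again 6 for IP reads, 8 for input reads and 0 for the fold.

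Dusp6, the cytoplasmic phosphatase of ERK that is often read as a gauge of its activity, was called in normal replicate 2 alone. The region (chromosome 10, 99264351 to 99265180, plus strand) had 1849 IP reads, 796 input reads and a fold of 2.32. A fold this close to the threshold of 2 means that a list without the peak may still hold reads there, so no direction can be given for Dusp6.

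**Figure D4:**
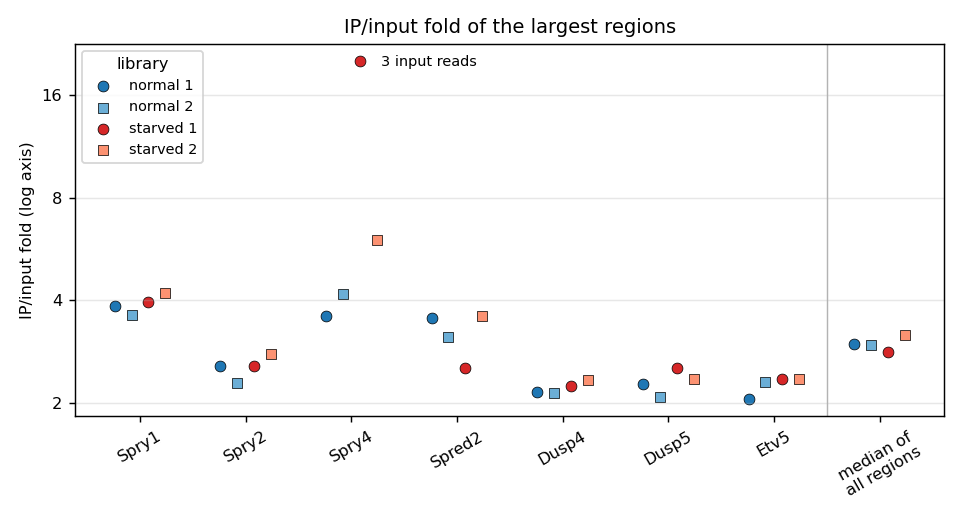
IP/input fold of the largest region of each gene in the 2 normal and 2 starved libraries, on a log axis, beside the median of all regions of each list. Apart from starved Spry4, at 20.1 on 3 input reads and at 5.99, the values lie between 2.05 and 4.19.

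Etv5, an ETS factor induced through FGF and ERK, had no region past the cutoff. Its largest region (chromosome 16, 22381321 to 22383870, minus strand) covered exon 13 of 13, with 222 bp of coding sequence and 2149 bp of 3′UTR. It had 1444 and 1451 IP reads under normal conditions and 1867 and 1790 after starvation. The counted reads, which depend on library depth, were thus higher in both starved libraries. After scaling by TMM the log2 changes were -0.51 and -0.21, and scaling by the median region gave a mean of -0.44. The direction thus differed between unscaled and scaled reads. Input reads were 568 and 632 against 341 and 508, with log2 changes of -0.79 and -0.12, and the fold was 2.05 and 2.30 in normal MEFs and 2.35 in each starved list.

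A second region of Etv5, over exons 2 to 4, was called in all 4 lists with 77 and 63 IP reads in the normal lists against 125 and 216 in the starved lists. Its log2 changes were -0.18 and 1.26, opposite in sign. The other 7 regions of Etv5 were called in 2 or 3 lists, with 49 to 495 IP reads. Etv4, its close relative, had no peak on its exons in any list. The 4 regions named Etv4 lay outside the gene, 3 of them on exons of Dhx8, and none was called in all 4 lists.

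The genes fell in a wide order by the log2 change in IP reads of their largest region, taken as the mean of both replicates. Spry4 ranked 1 from the lowest of 6531 regions, Spry2 ranked 9, Dusp5 ranked 10, Spry1 ranked 51 and Dusp4 ranked 174. Etv5 ranked 1219 and Spred2 ranked 1295. Neighbours in this order did not all stand apart, since Spry2 (-4.15 and -2.60) and Dusp5 (-3.56 and -3.02) overlapped, as did Spry1 (-2.75 and -1.39) and Dusp4 (-1.86 and -0.82), and Etv5 and Spred2. Input reads gave the ranks 1, 15, 17, 65 and 207 for Spry4, Spry2, Dusp5, Spry1 and Dusp4, in the same order.

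The level of IP reads per kb of called sequence in normal MEFs did not follow the same order. These levels are not scaled between libraries, so they compare genes within a library and not normal with starved MEFs. It was 2512 and 3849 for Spry4, 3533 and 3295 for Spry2, 3644 and 2454 for Spry1, 2428 and 2239 for Dusp5, 1916 and 2485 for Dusp4, and 688 and 694 for Etv5. In starved MEFs it was 131 and 163 for Spry4, 393 and 922 for Spry2, 423 and 419 for Dusp5, 1023 and 1547 for Spry1, 1125 and 2118 for Dusp4, and 885 and 886 for Etv5. After scaling, the log2 changes per kb of Etv5 were -0.39 and -0.09. Spry4, the densest of these regions in normal replicate 2, was the sparsest of the 6 in both starved libraries.

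The 3′UTRs were searched for ATTTA, the core of AU-rich elements that shorten the life of many mRNAs. The median over the 10 genes was 1.86 per kb, against 1.48 in 17078 coding genes with at least 200 nt of 3′UTR and 1.21 in the 2083 of them with a region in all 4 lists. The longer TATTTAT, which includes ATTTA, was found in 50.0% of the genes, against 30.3% and 40.0% of those sets. Its carriers were Spry1, Spry2, Spry4, Spred1 and Etv5. Of these, the reads of Etv5 did not pass the cutoff and Spred1 had no direction. Dusp4 and Dusp5, which had regions past the cutoff in reads, held no TATTTAT, and Dusp5 had 0.90 ATTTA per kb. Whether these motifs relate to the changes was not tested. The motifs were searched on the mRNA strand only.

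Other genes of the pathway were taken as 3 lists of 83 genes in all, of which 25 had a region of their name called in all 4 lists. The 24 other transcripts known to be induced through ERK, early transcription factors and secreted factors among them, included 7 with such a region. Of these, 6 passed the 1.8-fold cutoff downwards in both replicates in IP reads and in input reads, where 2.92% and 3.67% of all regions did, with median log2 changes of -2.997 and -3.08. For 23 other Sprouty, Spred, DUSP and ETS genes, 2 of 7 passed in IP reads, Dusp1 and Erf, and 1 in input reads, with medians of -0.30 and -0.36. The region named Erf lay off the exons of Erf, so it may not measure Erf mRNA. It held 35 and 73 IP reads in the normal libraries and 28 and 34 in the starved ones. The region named Rras, of the receptor and cascade list, also lay off the exons of its gene. For 36 receptors and proteins of the Ras-ERK cascade, 0 of 11 passed in IP reads and 1 passed upwards in input reads, the adaptor Gab1, as 5.02% of all regions did, with medians of 0.06 and 0.13.

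The test of these genes was edgeR's quasi-likelihood test over all 6531 regions with Benjamini-Hochberg adjustment, and it called none of the 25. It called 0.0% of all regions in IP reads, 0.0% in input reads and 0.0153% in the IP/input ratio. At an unadjusted p under 0.05 it gave 8 of the 25 lower and 0 higher in IP reads, 7 lower and 0 higher in input reads, and 2 higher and 0 lower in the ratio. Over all regions these shares were 4.04% lower and 4.36% higher in IP reads, 3.58% lower and 4.13% higher in input reads, and 2.8% in either direction in the ratio. DESeq2 called 7 of the 25 lower at an adjusted p under 0.05 in IP reads and 7 in input reads, and 0 in the ratio, where it called 2.27% and 2.07% of all regions in IP and input reads. The 7 were Egr2, Lif, Fosb, Epha2, Jun, Trib1 and Dusp1.

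Egr2, an immediate-early zinc finger factor, had 1571 and 2797 IP reads in the normal libraries but 77 and 159 in the starved ones, with input reads of 354 and 704 against 1 and 27. Its log2 change in IP reads was -4.86 ± 0.50 (SE), with an edgeR adjusted p of 0.208. Lif, a cytokine of the IL-6 family, had 1478 and 2115 IP reads against 204 and 83, a log2 change of -4.32 ± 0.54 with an edgeR adjusted p of 0.222. Jun, a subunit of AP-1, had 15375 and 17994 IP reads against 4146 and 4274, with a log2 change of -2.68 ± 0.16 and an edgeR adjusted p of 0.105. After scaling, IP reads of each of these genes were lower in both replicates, as in 33.1% of all regions. None passed 0.05 in edgeR after adjustment, whereas DESeq2 called all of them.

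Dusp1, a phosphatase of the same family as Dusp4 and Dusp5 and an early response gene itself, had 9650 and 6755 IP reads under normal conditions and 3947 and 2939 after starvation. Its log2 change was -1.99 ± 0.38 (SE), with an edgeR adjusted p of 0.319. Fosb, a partner of Jun in AP-1, was the 1 gene of the 25 whose IP/input fold passed the cutoff, upwards. The log2 change of its IP/input ratio was 1.06, with an edgeR adjusted p of 0.999.

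**Figure D5:**
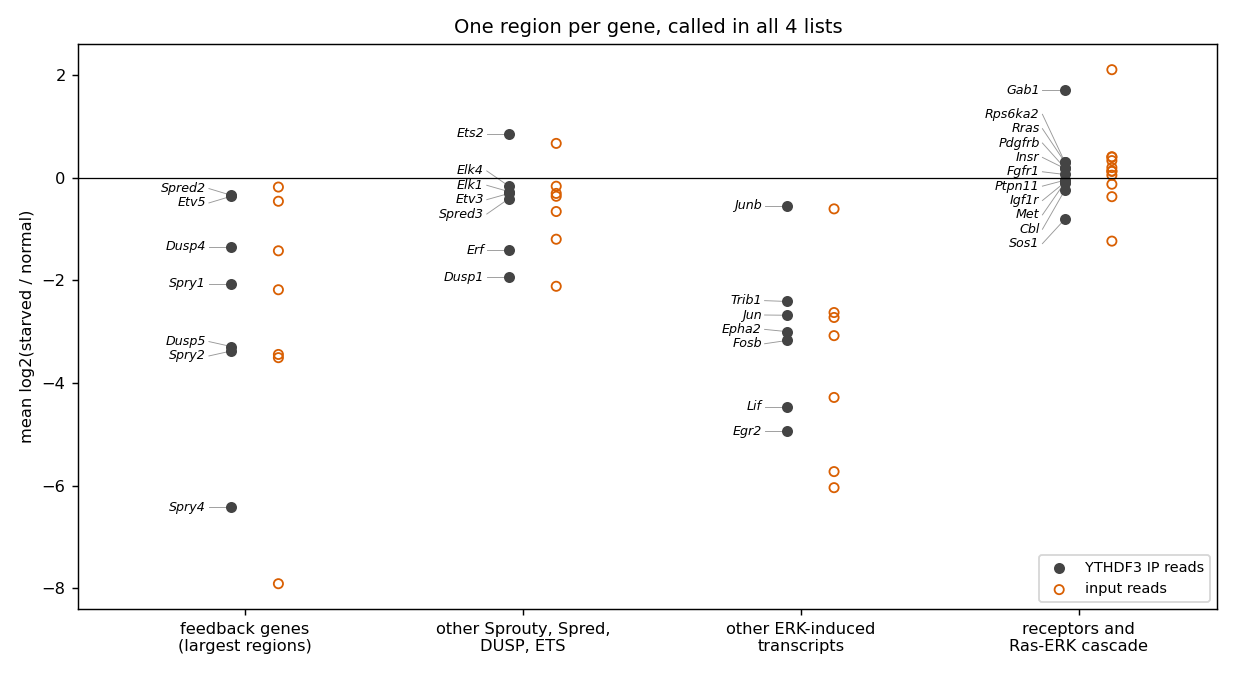
Log2 change in IP reads (filled) and input reads (open), starved over normal as the mean of both replicates, in 1 region per gene for the ERK feedback genes and the 3 pathway lists. Egr2, Lif, Fosb, Epha2, Jun and Trib1 lie in the range of the Sprouty genes, and 10 of the 11 receptors and cascade proteins lie between -1 and 1 in IP reads.

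The regions with the pattern nearest to that of Spry4 were Egr2, Lif and Rgs16, at Euclidean distances of 3.95, 5.02 and 5.34 over the 4 log2 changes of IP and input reads in both replicates. Spry2 had closer neighbours, a region named Fbxw10 that lies on exons of Trim16 at 0.739, Fosb at 0.789 and Nuak2 at 0.850. Spry4, which had the lowest reads of all 6531 regions, thus stood farther from its nearest region than Spry2 did. Its distance to Egr2 includes input changes in replicate 1 of -9.85 for Spry4 and -6.94 for Egr2. In starved replicate 1 these rest on 3 and 1 input reads, so the distance is uncertain.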

How the data were processed

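YTHDF3-bound RNA and input RNA of normal and starved MEFs were sequenced, in 2 replicates each. The authors used Trimmomatic for trimming, TopHat2 (2.0.13 per the labels) for alignment to mm10, diffReps to call peaks of each IP against an input, and HOMER to name the nearest gene. The authors deposited a signal for 3 lists, reads multiplied by 1 factor per library, and counts for normal replicate 2, where the factor is 1. The authors also deposited diffReps p-values, used to keep peaks under 0.0001, and a log2 ratio of IP to input, which is their own comparison and was not used. Dividing by the factor gave whole reads for 100% of values. The lists do not name their input libraries, and each was taken as that of the same condition and number.

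Peaks sharing 1 bp were merged. The IP/input fold was the summed signal of the IP over that of the input, with at least 3 input reads. Reads were scaled by TMM over regions called in all 4 lists, and a change counted at 1.8-fold, the cutoff of the study, in both replicates. Tests used edgeR 4.0.16 in R 4.3.3 and, as an alternative, DESeq2 1.42.0. On simulated reads with 200 regions changed 2.5-fold, edgeR recovered 96% in IP reads, 89% in input reads and 66.5% in the ratio. The spread between simulated replicates was preset and not estimated from these data. These shares therefore do not say how many such changes the test would find here. Python 3.11.15, pandas 2.3.3, numpy 2.4.6 and pysam 0.24.0 did the rest, with GENCODE gene models of mm10.

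The members, lists and tests were chosen with earlier results of these data known. All 10 members are named, with the region of most IP reads, among those of their name on their exons, as the largest region. Of the pathway lists, genes called by a test were to be named, and since edgeR called none, the genes named there were chosen after their values were seen. For likeness, the 3 nearest regions to Spry4 and Spry2 were named. Alternatives covered peak thresholds, overlap, scaling, read filters, cutoffs, reads per called base, best-peak folds, a replicate block and leaving out each replicate. Depth is unknown, which limits values of few reads. MeRIP-seq of the study is not analysed here.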

Additional observations from a re-analysis of the deposited data

How the results depend on the processing

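Of 182 recomputed values of the largest regions, 179 stayed within 1 SD of the replicates and 3 moved by more. Many of the 179 could not have moved further, so this count is no measure of robustness. Other cutoffs and naming by exons leave these values as they are. Leaving out 1 of 2 replicates always shifts their mean by less than 1 SD. The 3 were IP reads of Spry4 per called base (log2 -5.01) and the best-peak folds of Dusp5 (0.22) and Etv5 (-0.61). The sign changed in 4 values, none of a change past the cutoff. These were the Etv5 best-peak fold and, without replicate 1, the Spred2 IP reads (0.10), input reads (0.02) and fold (0.21). With the best-peak fold 1 member region, that of Spry4, passed the cutoff upwards, where the highest of several short starved peaks of few reads was set against a single normal peak. With 1 replicate alone, 1 region passed downwards in the fold with either replicate, and 0 to 2 upwards. Reads summed over all regions of a name left 3 member genes lower in input reads, in place of 5. Peaks of fold at least 4 left no member region in all 4 lists and gave no value.

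Over all regions, edgeR called 0 in IP reads (285 higher and 264 lower at an unadjusted p under 0.05) and 0 in input reads (270 and 234). In IP reads, DESeq2 called 148, 50% reciprocal overlap 3, and reads per called base 55. In input reads these called 135, 51 and 80. Leaving out a replicate gave 0 to 1 calls in IP reads, 0 to 3 in input reads and 1 to 3 in the ratio. The ratio, with 1 call, gave 0 with peaks of fold at least 4 and 0 with reciprocal overlap. Same-numbered differences correlated at r = 0.42 (IP), 0.40 (input) and 0.28 (fold), with 2 pairs only, so the main tests did not pair normal with starved samples. The log2 changes by replicate, and the 1.8-fold rule built on them, do set same-numbered libraries against each other. No label says that a number marks a shared culture. A replicate block gave 0, 0 and 1 calls, with 595 and 554 regions at an unadjusted p under 0.05 in IP reads and 477 and 448 in input reads.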
